A study of Rattus norvegicus with 6 samples.

Results

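The B-type ephrins are the transmembrane ligands Efnb1, Efnb2 and Efnb3, and the EphB receptors are the receptor tyrosine kinases they bind. They were followed here in rat aorta as 8 listed genes: the 3 ligands and the receptors Ephb1, Ephb2, Ephb3, Ephb4 and Ephb6. Members were the rows of the deposited array table whose annotation gave exactly 1 symbol, equal to a listed gene. Of the 8 genes, 7 had such a row, with 1 row each, out of 14324 genes in all; Ephb4 was not analysed here. Ring cultures from the aorta of male Fisher 344 rats aged 1 to 2 months, grown inside collagen gels for 1 day without serum in EBM medium (day 1), were compared with aortic rings taken fresh from rats of the same strain, sex and age (day 0). Each group held 3 biological replicates, and each replicate pooled RNA from 4 to 6 rings or cultures on its own array. RNA came from whole rings, which hold several cell types, so a transcript made in fewer cells and a transcript made at a lower level per cell cannot be told apart.

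Ephrins and Eph receptors signal where cells touch. A B-type ephrin on one cell activates the kinase of an EphB receptor on its neighbour (forward signalling), while the ephrin's own cytoplasmic tail is phosphorylated and recruits adaptors and PDZ proteins (reverse signalling). In blood vessels ephrin-B2 marks arterial endothelium and is also made by mural cells, and its main vascular receptor, EphB4, marks veins. EphB6 lacks kinase activity and acts through its partners. The comparison of day 1 with day 0 asks which of these transcripts differ after the first day of the aortic ring assay, a culture model of angiogenesis from the vessel wall.

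After 1 day of culture, 5 of the 7 measured members fell and 0 rose by limma (0 rose at an unadjusted p under 0.05). The ligand Efnb2 fell furthest, to 36.8% of its day 0 level, and the receptors Ephb3, Ephb2 and Ephb6 and the ligand Efnb1 fell to between 52.2% and 65.2% of theirs. Efnb3 and Ephb1, both dim on these arrays, did not pass the test. A fall past an adjusted p of 0.05 (limma, Benjamini-Hochberg over all genes) was called in 20.7% of the 14324 genes, and a change in either direction in 48.3%. Falls of at least 0.5 log2 units, a size set after the values were seen that each of the 5 members exceeded, were called in 9.64% of genes. The median change of the 7 members was -0.66, against -0.01 over all genes.

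Among the members that fell, Efnb2 and Ephb2 had no match to the motifs searched before their annotated starts. The regions before the starts of Efnb1, Ephb3 and Ephb6, which also fell, are shown because they hold such matches. Each is the 250 bases before the RefSeq start in assembly GRCr8, 5′ to 3′ along the gene, with capitals on matches to the Notch effector RBPJ (TGGGAA) or to Sp1 (GGGCGG), on either strand.
Efnb1 (chrX:68297279-68297528, plus strand): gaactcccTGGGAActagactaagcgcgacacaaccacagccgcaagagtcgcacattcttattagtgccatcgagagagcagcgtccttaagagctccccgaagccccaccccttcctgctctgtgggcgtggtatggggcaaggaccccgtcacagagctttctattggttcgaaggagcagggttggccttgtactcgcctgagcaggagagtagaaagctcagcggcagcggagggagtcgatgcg
Ephb3 (chr11:93363776-93364025, minus strand): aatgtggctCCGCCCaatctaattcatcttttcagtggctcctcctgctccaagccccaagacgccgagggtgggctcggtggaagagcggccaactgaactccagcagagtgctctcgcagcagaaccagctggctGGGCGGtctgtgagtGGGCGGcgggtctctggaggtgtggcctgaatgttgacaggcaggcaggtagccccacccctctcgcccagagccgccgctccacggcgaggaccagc
Ephb6 (chr4:71458382-71458631, plus strand): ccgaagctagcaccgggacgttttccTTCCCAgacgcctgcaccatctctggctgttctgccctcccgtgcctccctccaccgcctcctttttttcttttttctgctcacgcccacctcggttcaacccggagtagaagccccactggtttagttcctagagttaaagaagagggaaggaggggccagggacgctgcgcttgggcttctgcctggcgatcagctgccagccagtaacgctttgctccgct
RBPJ letters occurred once each before Efnb1 and Ephb6, with the first base 242 and 224 bases before the start. At least 1 such match was found in 22.1% of the 33469 rat windows of that length. The Sp1 letters occurred 3 times before Ephb3, 241, 113 and 98 bases before the start, and 3 times before Ephb4, 242, 89 and 11 bases before it. At least 1 such match was found in 30.5% of all windows. Before Efnb2, Ephb2 and Ephb1 neither motif was found, nor were AP-1 (TGACTCA, 4.05% of windows), CREB (TGACGTCA, 1.59%) or CArG box letters of the muscle factor SRF (1.5%). The last 3 motifs were found in no member's window. The Efnb2 window was rich in G and C, at 80.4% against a median of 51.2% over all windows. These matches are descriptions of the letters and say nothing of binding, and no overlap between matches of different motifs occurred in the windows shown. Windows were found for 7 of the 8 listed genes, Efnb3 being the exception.

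Among the ligands, Efnb2 (transcript cluster 10789688), the arterial ephrin, had log2 values of 7.82, 7.94 and 7.77 in the day 1 cultures, against 9.29, 9.25 and 9.32 in the day 0 rings. Every day 1 array lay at least 1.31 log2 units below every day 0 array. The change was -1.44 ± 0.07 (SE, n = 3 per group; 95% confidence interval -1.60 to -1.29; limma adjusted p = 1.30e-06), a 2.72-fold fall, and only 2.30% of all genes had a more negative change. Efnb1 (10934173), the X-linked ligand known for its part in craniofacial patterning and cell sorting, had 6.71, 6.48 and 6.64 on day 1, against 7.22, 7.40 and 7.20 on day 0. The groups did not overlap, with a gap of 0.48, and the change was -0.66 ± 0.09 (SE; 95% confidence interval -0.86 to -0.46; limma adjusted p = 3.97e-04). Efnb3 (10744081), best known as a midline barrier in the nervous system, had 4.82, 4.72 and 4.43 on day 1, against 4.86, 4.90 and 4.69 on day 0. These groups overlapped. The change of -0.16 ± 0.11 (SE; 95% confidence interval -0.41 to 0.10; limma adjusted p = 0.275) did not pass, and its interval ends short of the falls of the 5 members that passed. Its level stood in the dimmest 22.9% of genes, where log2 values understate fold changes.

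The falls of Efnb2 and Efnb1 could be set against each other within each array. Efnb2 minus Efnb1 lay between 1.11 and 1.46 log2 units in the day 1 cultures and between 1.85 and 2.12 in the day 0 rings, without overlap. Efnb2 fell by 0.78 ± 0.14 log2 units (SE, n = 3 per group) more than Efnb1. An exact two-sided permutation test gave p = 0.1, the smallest p that 3 arrays against 3 allow, so this difference could not pass a threshold of 0.05 by that test.

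**Figure D1:**
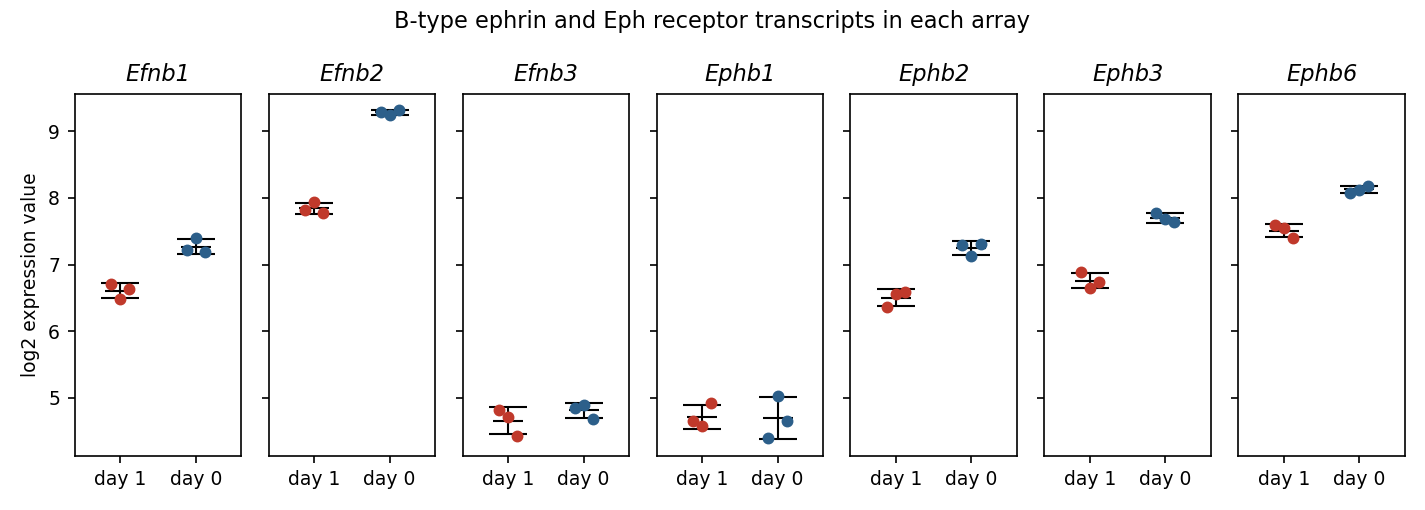
Log2 expression values of the 7 measured members in each array, with day 1 cultures in red left of day 0 rings in blue; bars show mean and SD of 3 arrays. Day 1 lies wholly below day 0 in Efnb1, Efnb2, Ephb2, Ephb3 and Ephb6, and the groups overlap in Efnb3 and Ephb1. Heights of different genes are not comparable, since each comes from its own probes.

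Among the receptors, Ephb3 (10755260), which with Ephb2 guides axon crossing and the sorting of intestinal crypt cells, had 6.89, 6.65 and 6.74 on day 1, against 7.78, 7.69 and 7.63 on day 0. All 3 day 1 values were below all 3 day 0 values, by 0.74 or more. The change was -0.94 ± 0.08 (SE; 95% confidence interval -1.12 to -0.75; limma adjusted p = 3.45e-05), which is 52.2% of the day 0 level. Ephb2 (10880710), a receptor for all B-type ephrins, had 6.36, 6.56 and 6.60 on day 1, against 7.30, 7.13 and 7.31 on day 0. Its groups were 0.54 apart, and the change was -0.74 ± 0.09 (SE; 95% confidence interval -0.94 to -0.54; limma adjusted p = 1.96e-04). Ephb6 (10854961), the kinase-inactive receptor, had 7.59, 7.55 and 7.39 on day 1, against 8.08, 8.12 and 8.18 on day 0. Here too the groups were separate, by 0.48, and the change was -0.62 ± 0.07 (SE; 95% confidence interval -0.78 to -0.45; limma adjusted p = 2.18e-04). The confidence intervals of Efnb1, Ephb2 and Ephb6 covered much of the same range, and no test of the differences between these 3 was run.

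Ephb1 (10919590), a receptor with roles in optic nerve crossing, had 4.65, 4.57 and 4.92 on day 1, against 4.40, 5.03 and 4.66 on day 0. The day 0 arrays alone spanned the day 1 arrays. The change was 0.02 ± 0.16 (SE; 95% confidence interval -0.36 to 0.39; limma adjusted p = 0.938), and the level stood in the dimmest 22.5% of genes. The interval holds falls and rises, and its lower end is smaller in size than the falls of the 5 members that passed. As for Efnb3, log2 values at so dim a level understate fold changes, so a fall of that size in Ephb1 is not excluded. In all, 5 of 7 members had groups that did not overlap, each lower on day 1; over all genes, 25.5% were without overlap and lower on day 1, and 56.9% were without overlap in either direction.

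**Figure D2:**
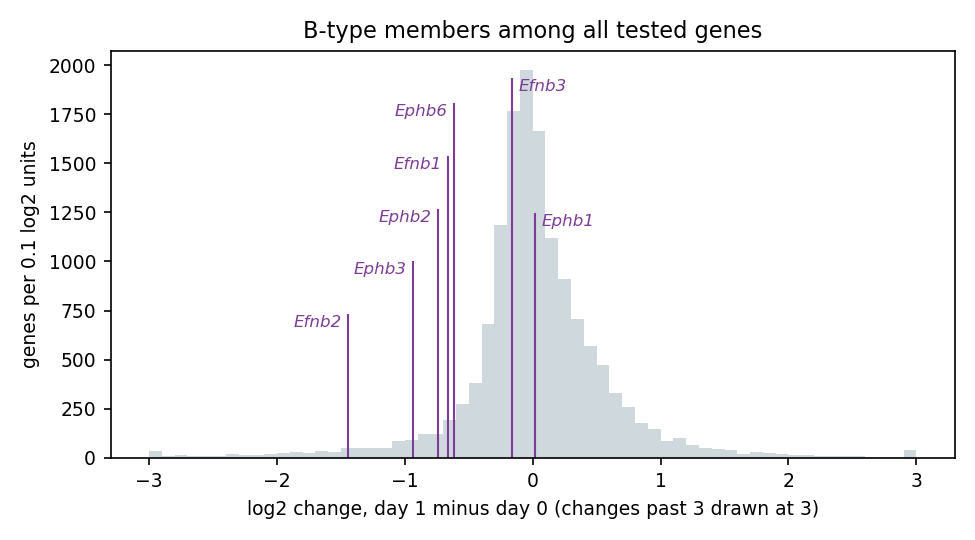
Histogram of log2 changes (day 1 minus day 0) over the 14324 tested genes in bins of 0.1, with the 7 members marked by lines whose heights carry no meaning. Efnb2 at -1.44, Ephb3 at -0.94, Ephb2 at -0.74, Efnb1 at -0.66 and Ephb6 at -0.62 lie in the lower tail, and Efnb3 at -0.16 and Ephb1 at 0.02 lie near the peak.

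The genes whose values followed Efnb2 most closely over the 6 arrays, by Euclidean distance between values centred on each gene's mean, were the chromatin remodeller Smarca2 (distance 0.09, change -1.47), the thyroid hormone receptor gene Thra (0.10, -1.42) and the Rac exchange factor gene Prex2 (0.10, -1.37). For Ephb3 they were Mb21d2 (0.07, -0.95), the actin-binding gene Nrap (0.08, -0.92) and the CTP synthase gene Ctps1 (0.09, -0.89). With 2 groups of 3 arrays this likeness is mostly a matter of having a change of the same size.

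The A-type family, whose ephrins are held to the membrane by a lipid anchor and bind mainly EphA receptors, changed in both directions. Of 11 measured genes out of 14 listed, 2 rose, 2 fell and 7 did not pass, with a median change of -0.06. Over all genes 27.6% rose and 20.7% fell, and these shares also stand beside the counts of every list below. Many A-type genes were dim, and the mean level of the list was 5.475 on day 1 and 5.545 on day 0. Epha3, a receptor of mesenchymal cells, was at 5.11 ± 0.09 on day 1 and 6.33 ± 0.29 on day 0 (SD, n = 3 each), a change of -1.21 ± 0.14 (SE). Epha1 changed by -0.55 ± 0.09 (SE), at a dim 4.55 on day 1 and 5.09 on day 0. The ligand gene Efna1, an early gene of the cytokine response in endothelium, was at 8.96 ± 0.03 on day 1 and 8.10 ± 0.10 on day 0 (SD, n = 3 each), and its change was 0.86 ± 0.07 (SE). Its receptor gene Epha2, which also takes part in vessel growth, rose by 0.47 ± 0.07 (SE). No test of the B-type against the A-type genes was made.

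**Figure D3:**
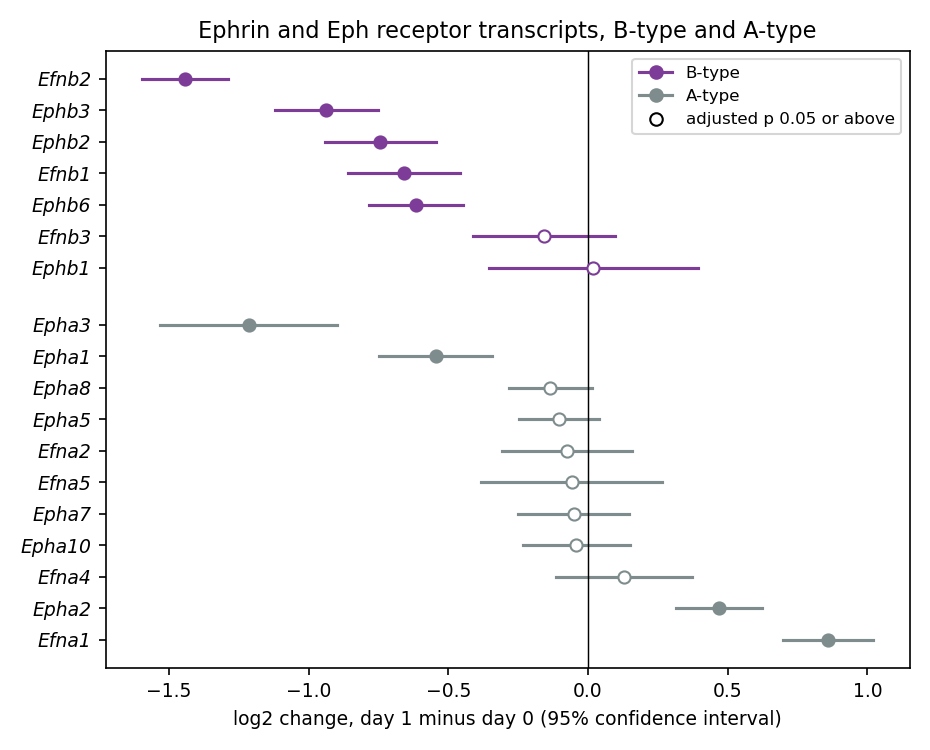
Log2 change (day 1 minus day 0) of each measured B-type gene in purple and A-type gene in grey, with its 95% confidence interval; open points did not pass an adjusted p of 0.05. B-type genes that passed all lie left of 0, and A-type genes that passed lie on both sides, from Epha3 at -1.21 to Efna1 at 0.86.

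Genes that carry the B-type signal inside the cell went both ways. Of 28 measured signalling partners out of 32 listed, 11 rose, 8 fell and 9 did not pass, with a median change of 0.05. Grip2, a scaffold whose PDZ domains bind the tails of B-type ephrins, had the largest change, with 6.05 ± 0.14 on day 1 and 8.98 ± 0.04 on day 0 (SD, n = 3 each), or -2.93 ± 0.08 (SE). Nck2, the adaptor that binds phosphorylated ephrin-B tails, also fell, by 0.56 ± 0.07 (SE), as did Grb10, by 0.76 ± 0.06 (SE). Rasa1, the Ras GTPase-activating protein recruited by active EphB2, rose by 1.24 ± 0.06 (SE), and Fyn, a Src family kinase acting on both sides of the signal, rose by 1.10 ± 0.06 (SE). The syntenin gene Sdcbp, another PDZ partner of ephrin-B, rose by 0.35 ± 0.06 (SE). Other PDZ proteins in the list also went both ways: Tiam1 rose by 0.56 ± 0.10 (SE) and Pick1 fell by 0.36 ± 0.09 (SE). Rgs3 at 0.16 ± 0.08, Pard6a at -0.22 ± 0.08 and Grip1 at -0.04 ± 0.09 (SE each) did not pass.

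Genes of proteases that cut ephrins or Eph receptors, gamma-secretase subunits among them, were measured in 9 of 15 cases. Adam10 was among the genes not measured. Of the 9, 7 rose and 0 fell by limma (0 fell at an unadjusted p under 0.05), with a median change of 0.28. Over all genes 27.6% rose. The genes that rose included the gamma-secretase subunit genes Aph1a, Psen2 and Ncstn, so the 7 are not 7 separate proteases. The largest changes were those of the membrane metalloprotease gene Adam9 (1.61 ± 0.06, SE), the rhomboid protease gene Rhbdl2, whose human counterpart cuts ephrin-B3 (0.87 ± 0.17, SE, at a dim 4.46 on day 1 and 3.59 on day 0), and the gamma-secretase subunit gene Aph1a (0.53 ± 0.07, SE). Several of these calls rest on small changes: the count was 4 without day 1 replicate 2, 4 without day 0 replicate 1, 4 without day 0 replicate 2 and 3 without day 0 replicate 3.

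Among 17 arterial endothelial genes, all measured, 8 rose and 5 fell, with a median change of 0.14. Efnb2 was the largest of the 5 falls, ahead of the kinase gene Bmx (-1.24 ± 0.09, SE), the Notch ligand gene Jag1 (-1.20 ± 0.05, SE), the BMP receptor gene Acvrl1 (-0.82 ± 0.08, SE) and the Notch target gene Hey2 (-0.54 ± 0.09, SE). Other arterial genes rose, led by the chemokine receptor gene Cxcr4 (3.03 ± 0.11, SE) and the connexin gene Gja5 (1.39 ± 0.07, SE). The arterial list is not particular to arterial endothelium, since Sox17 also stands among the endothelial markers and mural cells also make ephrin-B2. In which cells of the whole rings these genes changed was not tested. Among 6 measured of 9 listed venous genes 4 rose and 2 fell, with a median change of 0.55. The list is not particular to veins, since Flt4 also stands among the lymphatic markers and Emcn among the endothelial markers. Vcam1 (1.14 ± 0.06, SE), Flt4 (0.92 ± 0.12, SE), Nrp2 (0.76 ± 0.07, SE) and Emcn (0.34 ± 0.10, SE) rose, while Nr2f2, the factor that sets venous identity (-0.54 ± 0.07, SE), and Aplnr (-0.36 ± 0.07, SE) fell.

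Markers of the cells in the wall moved over the same day. All 11 measured smooth muscle markers of 12 fell, with a median change of -3.98; their summed level (log2 of the summed linear values) was 11.97 to 12.14 on day 1 and 15.36 to 15.43 on day 0. Cnn1, calponin, changed by -5.73 ± 0.07, Casq2 by -5.15 ± 0.12 and Pln by -4.20 ± 0.08 (SE each). Adipocyte markers fell in 7 of 8 cases, with summed levels of 8.64 to 8.77 on day 1 and 9.97 to 10.2 on day 0, led by Ucp1 (-3.13 ± 0.21, SE). Of 10 fibroblast markers 7 fell, led by Col14a1 (-2.11 ± 0.07, SE), and 3 rose, Pdgfra (1.85 ± 0.07, SE), Lum and Dcn, with summed levels of 15.5 on day 1 and 15.7 to 15.8 on day 0. Of 9 measured endothelial markers of 12 listed, 5 rose and 2 fell, with summed levels of 11.4 to 11.5 on day 1 and 11.3 to 11.5 on day 0; Egfl7 (0.87 ± 0.10, SE) rose furthest, and Esam (-0.65 ± 0.08, SE) and Tek (-0.65 ± 0.06, SE) fell. The count of endothelial markers that rose was 3 without day 1 replicate 3 and 3 without day 0 replicate 3. Of 10 macrophage markers 3 rose and 3 fell, with Cd68 at 1.70 ± 0.06, Lyve1 at -2.05 ± 0.08 and summed levels of 12.3 to 12.4 on day 1 and 11.91 to 12.01 on day 0. The part of these shifts in the falls of the B-type genes was not tested. In the fresh rings the day 0 means of smooth muscle markers ranged from Smtn at 10.03 to Tagln at 13.25. Those of endothelial markers ranged from Robo4 at a dim 4.89 to Tek at 9.91. Levels of different genes are not comparable, since each comes from its own probes.

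**Figure D4:**
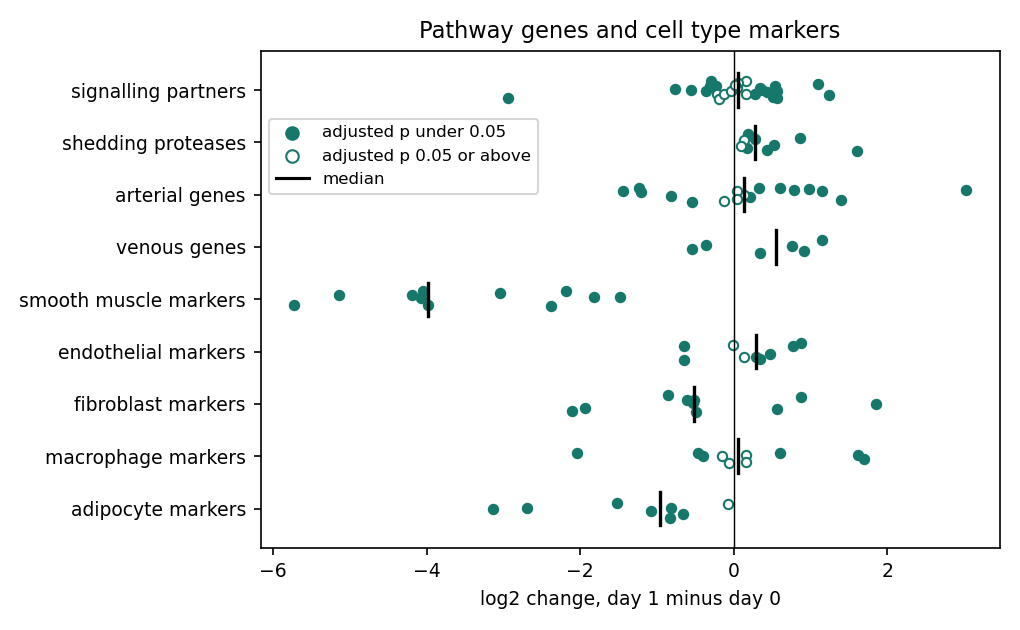
Log2 change (day 1 minus day 0) of each measured gene of the signalling, protease, arterial and venous lists and of 5 marker lists, with black bars at the medians and open points for genes that did not pass an adjusted p of 0.05. Smooth muscle markers all lie below 0, around a median of -3.98, and signalling partners scatter on both sides, with Grip2 far left at -2.93.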

How the data were processed

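The authors deposited log2 expression values for 27342 rows and 6 arrays in 1 table; that the scale is log2 was read from the values' range. Per the labels, 200 ng of total RNA went into the whole-transcript sense labelling of Affymetrix. Limma is named in the submitters' processing notes; for normalization and summarisation of the arrays, the method is not stated in the labels or the table. The array medians were 5.87 to 5.95 and no further scaling was done. The number of arrays limits the precision, and p-values cover only the spread among pools, which may share animals.

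Rows were named through the array annotation (15097 rows with 1 symbol, 323 with several, 11922 with none), symbols were updated by gene ID or accession, and the row with the highest mean was kept per gene. Day 1 was compared with day 0 with limma 3.58.1 in R 4.3.3 (lmFit, eBayes, two-sided, Benjamini-Hochberg over 14324 genes, threshold 0.05); the fit was tested on simulated data. Motifs were searched in RefSeq windows of assembly GRCr8.

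Members, lists and tests were chosen with earlier results of these data known. The text names all members. Per list it names genes among the 3 largest changes past the threshold and the largest against the majority, in some lists fewer. Nck2, Grb10, Sdcbp, Tiam1, Pick1, Rgs3, Pard6a, Grip1, Psen2, Ncstn, Smtn, Tagln, Robo4, and genes that fill counts of 5 or fewer, were added after their values were seen. The fit was repeated with quantile-normalized or median-centred arrays, with 2 filters on dim genes, with other rows per gene or all rows, with a trended robust prior or array weights, with a replicate block, and without each array.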

Additional observations from a re-analysis of the deposited data

How the results depend on the processing

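The falls of Efnb1, Efnb2, Ephb2, Ephb3 and Ephb6 kept their direction and passed the threshold under all 16 alternatives, and the count of members that fell was 5 in each. Over these alternatives the change of Efnb2 ran from -1.53 to -1.39, that of Ephb3 from -1.001 to -0.88, that of Ephb2 from -0.80 to -0.67, that of Efnb1 from -0.71 to -0.59 and that of Ephb6 from -0.71 to -0.56. Efnb3 (-0.24 to -0.05, adjusted p 0.124 to 0.714) and Ephb1 (-0.13 to 0.18, adjusted p 0.301 to 0.999) passed under none of the 14 alternatives that kept them; both filters on dim genes removed them. Counts of all genes and of the pathway lists moved by over 1.5 times as follows. Without genes under the median mean, where fewer genes are tested, 1844 genes fell, against 2968; in the A-type list 0 fell and 1 rose, and in the venous list 1 fell and 2 rose. Without the dimmest 25% of genes, 1 A-type gene fell. With every row as a feature, 4 genes of the protease list rose, and 3 to 5 did with 1 array left out. Among marker lists, without genes under the median mean 2 adipocyte, 1 Schwann cell and neuron and 0 lymphocyte markers fell, and 0 lymphocyte and 1 mesothelial and lymphatic markers rose. Without the dimmest 25% of genes 1 lymphocyte marker rose, and with a trended robust prior 5 macrophage markers rose. Mesothelial and lymphatic markers that fell numbered 2 without day 0 replicate 1 and 1 without day 0 replicate 2, against 0. Same-numbered replicates showed little sign of pairing: their deviations from the group means correlated at 0.01, 0.02 and 0.04. Not every array correlated best with its own number. With 3 arrays per group, these values cannot show whether same-numbered replicates shared animals. With the replicate number as a block, 6686 genes passed, against 6915, and for Efnb2 minus Efnb1 an exact permutation of signs over the 3 pairs gave p = 0.25, the smallest it allows. The planned comparison of Efnb2 with Ephb4 was not run, since Ephb4 was not analysed here.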

Other observations

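Markers of cell types not covered above were also measured. Of 7 lymphocyte markers, Blk (1.11 ± 0.20, SE, n = 3 per group) and Il7r (0.84 ± 0.11, SE) rose, Cd2 fell by 0.55 ± 0.06 (SE), and 4 did not pass (limma with Benjamini-Hochberg adjustment). Of 6 Schwann cell and neuron markers, Ncam1, an adhesion molecule, fell by 1.17 ± 0.08 (SE), Prph, a neuronal filament gene, fell by 0.52 ± 0.08 (SE), and 4 did not pass. Of 6 mesothelial and lymphatic markers, Pdpn, podoplanin, rose by 2.84 ± 0.06 (SE) and Flt4 by 0.92 ± 0.12 (SE), and 4 did not pass. The changes of those 4 were below 0, at -0.30 for Ccl21, -0.25 for Prox1, -0.17 for Msln and -0.04 for Wt1. The median change of the list was -0.11.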
